A study of Mus musculus with 6 samples.

Results

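The lipid droplet proteins and lipolysis genes of mouse liver were followed in livers with and without hepatocyte Pak4. The set held 10 genes, matched by symbol among the 45777 genes of the deposited table. They were G0s2, Pnpla2, Abhd5 and Mgll of triglyceride breakdown, the perilipins Plin2, Plin4 and Plin5, and the CIDE genes Cidea, Cideb and Cidec. The RNA came from the whole liver of C57BL/6 mice aged 10 weeks, with 3 libraries in each of 2 groups. The control group, WT, was Pak4 flox/flox, which means that both Pak4 alleles carry sites for Cre recombinase and no Cre is present. The Pak4_KO group was Alb-Cre; Pak4 flox/flox, in which the albumin promoter drives Cre in hepatocytes. Its genotype label is hepatocyte-specific Pak4 KO, and loss of the gene in other liver cells was not tested. By these labels, floxed Pak4 was shared by all 6 libraries, and the Alb-Cre transgene was the difference named between the groups. Whether the groups also differed in genetic background was not tested. The labels used here name no feeding state, hour of day or sex, and do not say which libraries came from separate animals. The p-values therefore cover the variation among these libraries, some of which may be technical.

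Libraries held 39603272 to 52521400 reads. Pak4 itself stood at 5.93, 7.15 and 6.44 CPM (reads scaled to the library total, adjusted by TMM factors) in WT and at 1.37, 2.24 and 1.90 CPM in Pak4_KO, with no overlap. Markers of hepatocytes, 10 genes led by Alb, summed to 73468 to 92256 CPM in WT against 80480 to 90912 CPM in Pak4_KO. In whole tissue, fewer cells of a type and less RNA per cell cannot be told apart.

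A hepatocyte stores fatty acids as triglyceride in lipid droplets, whose surface is coated by perilipins. Adipose triglyceride lipase, encoded by Pnpla2 and also called ATGL, removes the first fatty acid and is the rate-limiting lipase of the droplet. Abhd5 (also CGI-58) encodes its activator and G0s2 its inhibitor, while Mgll, monoglyceride lipase, completes the breakdown. Plin2 is the main perilipin of hepatocytes, Plin5 tethers droplets to mitochondria and restrains lipolysis in the fed state, and Plin4 is best known from fat cells. CIDE proteins gather where droplets touch: Cidec (Fsp27) and Cidea drive the merging of droplets, and Cideb also acts in loading of very-low-density lipoprotein.

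Promoter sequences are shown for G0s2, Pnpla2, Plin4 and Plin5, the members whose WT and Pak4_KO libraries did not overlap. Each runs 5′ to 3′ on the gene's own strand, with 250 bases before and 50 bases from a start listed in RefSeq (GRCm38.p6). For Plin4 and Plin5 that start lies inside the gene span given further below, so bases before it can fall within the gene. The windows lie at chr1:193273139-193273438 on the minus strand (G0s2), chr7:141454938-141455237 on the plus strand (Pnpla2), chr17:56109733-56110032 on the minus strand (Plin4) and chr17:56117499-56117798 on the minus strand (Plin5, the first of 2 listed starts). Capitals mark matches, on either strand, to the GC box GGGCGG, the CCAAT box, the nuclear receptor half-site AGGTCA, the TATA box TATAAA, the E-box CACGTG or the repeat AGGNCANAGGNCA (a direct repeat of half-sites, the type bound by PPAR receptors). The last overlaps AGGTCA where N is T, and the other motifs were searched independently.
G0s2: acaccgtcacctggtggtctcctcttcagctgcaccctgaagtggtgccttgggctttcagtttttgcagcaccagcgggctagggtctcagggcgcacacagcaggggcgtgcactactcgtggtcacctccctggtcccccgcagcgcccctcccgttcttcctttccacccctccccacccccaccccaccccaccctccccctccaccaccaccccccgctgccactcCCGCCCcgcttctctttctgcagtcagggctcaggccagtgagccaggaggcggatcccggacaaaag
Pnpla2: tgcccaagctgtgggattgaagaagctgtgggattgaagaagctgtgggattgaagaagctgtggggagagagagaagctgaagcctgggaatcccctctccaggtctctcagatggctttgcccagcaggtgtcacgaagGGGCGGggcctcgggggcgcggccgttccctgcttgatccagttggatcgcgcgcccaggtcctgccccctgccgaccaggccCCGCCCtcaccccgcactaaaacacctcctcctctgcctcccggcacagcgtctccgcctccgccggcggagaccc
Plin4: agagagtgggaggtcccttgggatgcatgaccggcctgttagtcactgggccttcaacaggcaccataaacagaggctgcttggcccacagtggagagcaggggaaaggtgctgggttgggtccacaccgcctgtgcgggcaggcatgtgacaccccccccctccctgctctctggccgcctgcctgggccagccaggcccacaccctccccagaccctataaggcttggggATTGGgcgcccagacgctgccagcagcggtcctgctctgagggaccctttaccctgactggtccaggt
Plin5: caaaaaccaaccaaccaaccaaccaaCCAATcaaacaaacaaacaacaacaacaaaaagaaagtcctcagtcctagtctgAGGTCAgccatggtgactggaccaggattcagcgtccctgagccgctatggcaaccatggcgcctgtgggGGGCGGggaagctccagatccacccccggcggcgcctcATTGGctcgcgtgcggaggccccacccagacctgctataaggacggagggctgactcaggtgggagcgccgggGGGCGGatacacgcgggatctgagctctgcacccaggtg

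Counting the first base of the listed start as 1, the G0s2 window held 1 match, a GC box read on the other strand at -18 to -13. The Pnpla2 window held 2 GC boxes, at -109 to -104 and, on the other strand, at -26 to -21. Plin4 had no GC box there, and its 1 match was CCAAT on the other strand at -18 to -14. Plin5 had AGGTCA at -170 to -165, GC boxes at -100 to -95 and 12 to 17, and CCAAT at -224 to -220 and, on the other strand, at -62 to -58. Of the 10 members, 9 had a window in the RefSeq table and Cidea had none, which gave 12 windows in all. GGGCGG was in 9 of the 12 windows, those of 7 members, and in 35.7% of all 32851 promoter windows of this length. The 2 windows of Plin5 overlap and share the GC box at 12 to 17 of the first. AGGTCA was in 4 of the 12, those of 3 members, and in 16.3% of all windows. CCAAT was in 3 of the 12 and in 37.4%, CACGTG in 2 and in 7.15%, and TATAAA in 1 and in 13.6%. AGGNCANAGGNCA was in 0 of the 12 and in 0.381% of all windows, so these letters are not in the 300 bases searched.

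G0s2, the inhibitor of the lipase, rose in Pak4_KO liver, and no other member passed the test over all genes. Of the 10 members 9 were tested, since Cidea had too few reads, and 8 of the 9 had a positive log2 fold change. The test called 1 member higher and 0 lower, beside 0.265% of 16197 tested genes called higher and 0.204% called lower. At an unadjusted p under 0.05, 5 members were higher and 0 lower, beside 4.51% and 3.69% of all tested genes. The DESeq2 Wald test called 3 members higher and 0 lower (G0s2, Plin4 and Plin5), beside 1.08% and 0.982% of genes. The median log2 fold change over the 9 tested members was 0.63, beside 0.0045 over all tested genes, where 50.7% were above 0. Members were chosen with results of these data known, so these counts describe the set and test nothing about it. In 4 of the 9, every Pak4_KO library lay above every WT library, as in 7.35% of all tested genes, and in 0 every Pak4_KO library lay below, as in 6.06%.

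**Figure D1:**
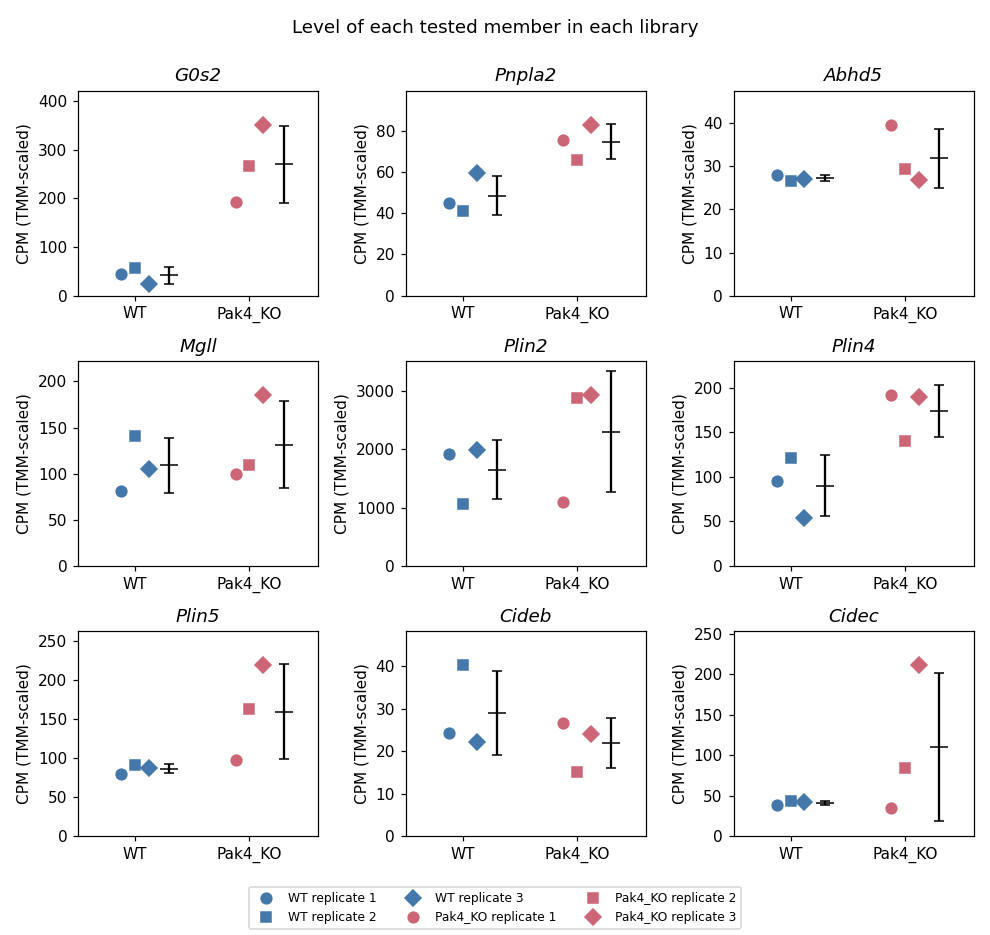
Level of each of the 9 tested members (TMM-scaled CPM, y axis from 0) in the 3 WT and 3 Pak4_KO libraries. Points are libraries, and the bar beside each group is its mean ± SD. G0s2, Pnpla2, Plin4 and Plin5 show no overlap between groups, while Pak4_KO replicate 1 sits within or below the WT range for Plin2 and Cidec.

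G0s2 (NCBI gene 14373, chromosome 1, 193272160 to 193273188, minus strand, GRCm38) had 1739, 2745 and 1177 reads in the WT libraries and 8160, 12573 and 17580 in the Pak4_KO libraries. On the CPM scale these were 43.9, 57.8 and 23.4 against 193, 266 and 352. The lowest Pak4_KO library lay 3.33-fold above the highest WT library. The group means were 41.7 ± 17.3 and 270.1 ± 79.7 CPM (SD, n = 3 each), a log2 fold change of 2.70 (edgeR adjusted p = 0.0169, SE 0.35). This is 6.48-fold, with a 95% interval of 3.73 to 11.3, and it ranked 41 by p among the 16197 genes. Without WT replicate 1, Pak4_KO replicate 2 or Pak4_KO replicate 3 the adjusted p was 0.0747, 0.0968 and 0.0691, with log2 fold changes of 2.73, 2.71 and 2.46.

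The G0s2 locus lies wholly inside Lamb3, a laminin subunit gene on the opposite strand, and shares 0 exon bases with it in GENCODE M21. Lamb3 stood at 4.63 ± 1.16 CPM in WT against 13.5 ± 6.15 CPM in Pak4_KO (SD, n = 3 each), a log2 fold change of 1.54 (edgeR adjusted p = 0.137, SE 0.33). The library kit marks strand, but no source used here gives the strand setting of the counting. The Pak4_KO mean of Lamb3 was 4.98% of that of G0s2 in CPM, and the part of either gene's reads in the other's count was not tested.

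Pnpla2, the lipase that G0s2 inhibits, lies on chromosome 7 (NCBI gene 66853, 141455188 to 141460743, plus strand), far from Pak4 on the same chromosome (28558819 to 28598184). Its levels were 44.8, 41.2 and 59.2 CPM in WT against 75.3, 65.9 and 82.8 CPM in Pak4_KO. The groups did not overlap, and the gap between the nearest libraries, 59.2 and 65.9 CPM, was narrow. The log2 fold change was 0.63 (SE 0.17, edgeR adjusted p = 0.265), and the fold of 1.54 had a 95% interval of 1.18 to 2.01. These intervals come from the single-gene fit and are not adjusted for the number of genes tested.

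The activator Abhd5 (NCBI gene 67469, chromosome 9, 122351616 to 122381524, plus strand) was the least variable member in WT, at 28.0, 26.7 and 27.0 CPM. In Pak4_KO it stood at 39.6, 29.3 and 26.7 CPM, with replicates 1 and 2 above all of WT and replicate 3 within its range. The log2 fold change was 0.22 (SE 0.17, edgeR adjusted p = 0.812), and the 95% interval of the fold, 0.899 to 1.52, includes no change. Abhd5 shares 950 exon bases with an antisense gene, A730085K08Rik, which had 0 reads in the WT and 0 in the Pak4_KO libraries. The Abhd5 count is uncertain where the counting ignored strand.

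Mgll, the last enzyme of the pathway (NCBI gene 23945, chromosome 6, 88724412 to 88828360, plus strand), stood at 81.0, 140.5 and 105 CPM in WT. In Pak4_KO it stood at 99.6, 109.6 and 185 CPM. The groups overlapped, with replicate 3 the single Pak4_KO library above all of WT. The log2 fold change was 0.27 (SE 0.27, edgeR adjusted p = 0.886; fold 1.21, 95% interval 0.781 to 1.87). Its sign turned, to -0.060, without that library. An antisense gene, Gm26588, shares 167 exon bases with Mgll and had 408 reads in the 3 WT and 365 in the 3 Pak4_KO libraries, few beside Mgll.

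Ratios of reads within a library do not depend on how libraries are scaled. For each Pnpla2 read there were 0.980, 1.40 and 0.395 G0s2 reads in WT and 2.56, 4.04 and 4.25 in Pak4_KO. Message for the inhibitor, relative to that for its target lipase, was thus higher in each Pak4_KO library than in any WT library, 4.32-fold as a ratio of geometric means. An exact two-sided permutation test gave p = 0.1, the smallest that 3 libraries against 3 allow, and 0.5 after Benjamini-Hochberg adjustment over the 5 ratios computed. As read counts these ratios carry the different lengths of the genes; per length, on the TPM scale, the G0s2 to Pnpla2 ratio was 3.07, 4.39 and 1.25 in WT and 8.08, 12.8 and 13.4 in Pak4_KO. The Abhd5 to Pnpla2 ratio was 0.626, 0.648 and 0.457 in WT and 0.526, 0.444 and 0.322 in Pak4_KO, overlapping, with an exact permutation p of 0.2 (0.5 adjusted). The Mgll to Pnpla2 ratio averaged 2.33 ± 0.934 in WT and 1.74 ± 0.463 in Pak4_KO (SD, n = 3 each; exact permutation p = 0.4, 0.5 adjusted).

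**Figure D2:**
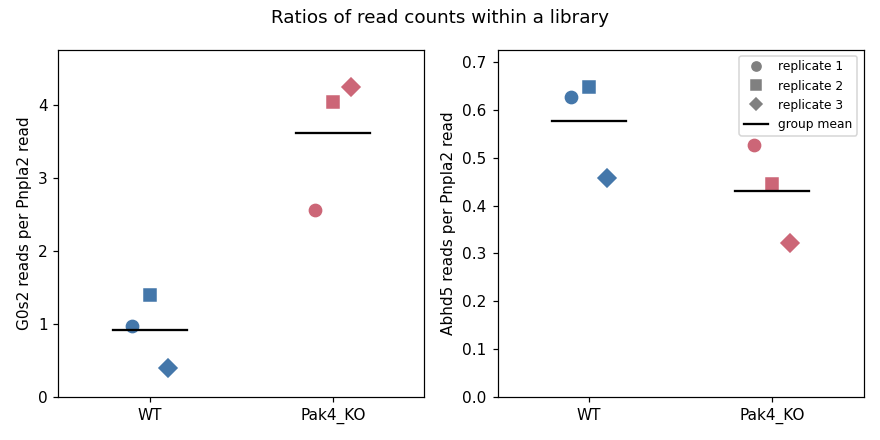
G0s2 reads (left) and Abhd5 reads (right) per Pnpla2 read in each library, with y axes from 0. Points are libraries and lines are group means: the G0s2 ratio is 0.395 to 1.40 in WT and 2.56 to 4.25 in Pak4_KO, while the Abhd5 ratios of the groups overlap.

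Among the perilipins, Plin4 and Plin5 were higher in every Pak4_KO library than in any WT library, and Plin2 was not. None of the 3 passed the edgeR test. Plin4 and Plin5 are neighbours on chromosome 17, 1648 bases apart and both on the minus strand. Plin4 (NCBI gene 57435, 56100587 to 56109948) stood at 95.7, 121 and 53.3 CPM in WT against 192, 140.3 and 189 CPM in Pak4_KO. Its log2 fold change was 0.95 (SE 0.28, edgeR adjusted p = 0.326, DESeq2 adjusted p = 0.0404; fold 1.93, 95% interval 1.24 to 3.00). The 17 bases that Plin4 shares with Hdgfl2 on the other strand are a small part of the gene, and Hdgfl2 had a log2 fold change of -0.11 (edgeR adjusted p = 0.924).

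Plin5 (NCBI gene 66968, 56111597 to 56117606) was even across WT, at 79.7, 91.1 and 87.7 CPM. In Pak4_KO it stood at 97.2, 162 and 219 CPM, so that replicate 1 lay just above the highest WT library and the other two well above it. The log2 fold change was 0.89 (SE 0.26, edgeR adjusted p = 0.319, DESeq2 adjusted p = 0.0495; fold 1.85, 95% interval 1.23 to 2.79). Of the 6 fits with a library left out, 1 passed in edgeR, that without Pak4_KO replicate 1 (log2 fold change 1.15, adjusted p = 0.0439). Without Pak4_KO replicate 3 the log2 fold change was 0.59 (adjusted p = 0.716).

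Plin2 (NCBI gene 11520, chromosome 4, 86626910 to 86670217, minus strand) had the most reads of the members, 50487 to 146486 per library. It stood at 1913, 1062 and 1981 CPM in WT against 1099, 2871 and 2931 CPM in Pak4_KO. In Pak4_KO, replicates 2 and 3 were above all of WT, while replicate 1 was close to the lowest WT library. The log2 fold change was 0.48 (SE 0.38, edgeR adjusted p = 0.834; fold 1.39, 95% interval 0.759 to 2.55). With this many reads, the width of the interval comes from the spread between libraries and not from counting error.

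Per length, Plin2 made up most of the perilipin message in every library. Of the summed TPM (a transcript share scaled for gene length) of Plin1 to Plin5, Plin2 took 92.8, 86.7 and 92.7% in WT and 85.4, 92.1 and 90.1% in Pak4_KO. Plin5 took 3.58, 6.98 and 3.82% in WT and 7.03, 4.89 and 6.30% in Pak4_KO. The shares of the groups overlapped for both genes. The Plin5 to Plin2 read ratio averaged 0.0572 ± 0.0247 in WT and 0.0732 ± 0.0160 in Pak4_KO (SD, n = 3 each; exact permutation p = 0.3, 0.5 adjusted). The Plin4 to Plin2 read ratio was 0.05004, 0.114 and 0.0269 in WT and 0.174, 0.0489 and 0.0645 in Pak4_KO, overlapping (exact permutation p = 0.5, 0.5 adjusted). The difference in mean log2 ratio of Plin4 to Plin2, 0.61, was 0.069 without Pak4_KO replicate 1 and 0.12 without WT replicate 3. It was 1.16 without WT replicate 2.

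None of the CIDE genes passed the test. Cidec (NCBI gene 14311, chromosome 6, 113424634 to 113435760, minus strand) lay in a narrow band in WT, at 38.0, 43.1 and 42.3 CPM. In Pak4_KO it stood at 34.3, 84.3 and 211 CPM, from below all of WT to 5.13 times the WT mean. The coefficient of variation was 6.71% in WT and 82.9% in Pak4_KO, the widest of any member. The log2 fold change was 1.42 (SE 0.53, edgeR adjusted p = 0.510; fold 2.67, 95% interval 1.15 to 6.19), and 0.53 without Pak4_KO replicate 3.

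Cideb (NCBI gene 12684, chromosome 14, 55754052 to 55758424, minus strand) was the one tested member with a negative value. Its levels were 24.3, 40.3 and 22.2 CPM in WT against 26.5, 15.2 and 24.0 CPM in Pak4_KO. The groups overlapped, and the log2 fold change of -0.40 (edgeR adjusted p = 0.800, SE 0.28; fold 0.758, 95% interval 0.489 to 1.18) was -0.084 without WT replicate 2, the library with the highest level. Cideb shares 1136 exon bases with Nop9 on the other strand, so its count is uncertain where the counting ignored strand. Nop9 itself stood at 29.4 ± 2.04 CPM in WT against 29.6 ± 3.11 CPM in Pak4_KO (SD, n = 3 each). Cidea (NCBI gene 12683, chromosome 18, 67343564 to 67367794, plus strand) had 5, 0 and 4 reads in WT and 0, 6 and 0 in Pak4_KO, too few to compare.

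**Figure D3:**
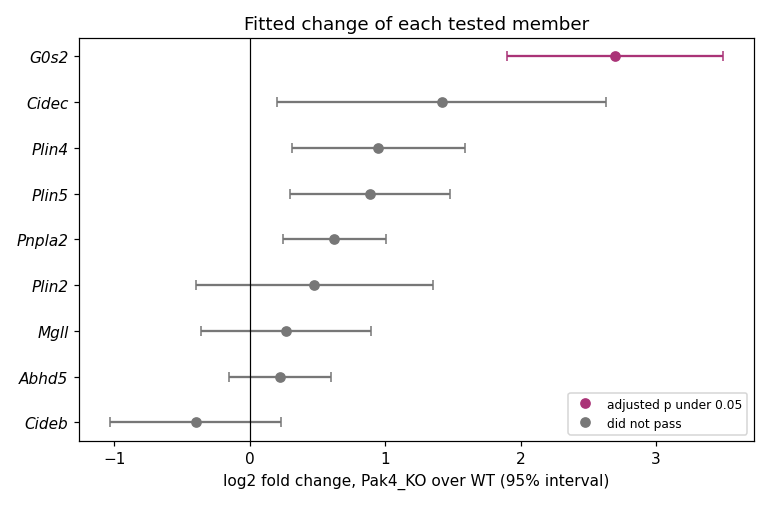
Fitted log2 fold change of Pak4_KO over WT (x axis) for each of the 9 tested members, with its 95% interval from the single-gene fit. G0s2, at 2.70, is the one member past an adjusted p of 0.05, and the intervals of Plin2, Mgll, Abhd5 and Cideb include 0.

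The level per length set the members in a similar order in both groups, with Plin2 first and Abhd5 and Cidea last. In WT, Plin2 stood at 1484 ± 485 TPM (SD, n = 3) and G0s2 followed at 81.3 ± 33.3, overlapping Plin5 at 71.7 ± 2.79. Below them came Mgll (50.3 ± 12.6), Cideb (40.3 ± 13), Cidec (37.2 ± 1.27), Pnpla2 (30.0 ± 5.49), Plin4 (22.6 ± 8.47) and Abhd5 (14.1 ± 0.834), each overlapping the next. In Pak4_KO, Plin2 stood at 2178 ± 1007 TPM and G0s2 at 562 ± 191, and G0s2 no longer overlapped Plin5 at 142 ± 60.05. Next was Cidec at 108 ± 94.99 TPM, then Mgll, Pnpla2, Plin4, Cideb and Abhd5, from 65.3 ± 27.3 to 17.4 ± 3.48, each overlapping the next. Cidea was below 0.2 TPM in every library.

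**Figure D4:**
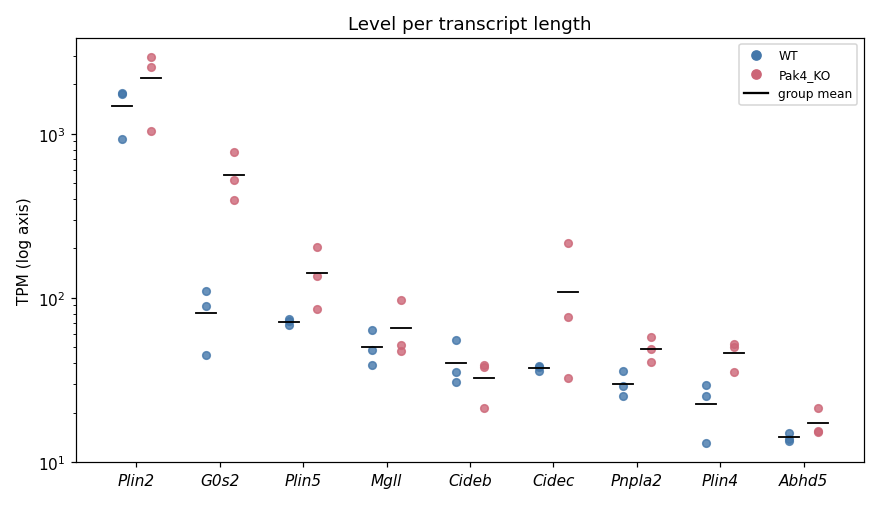
Level per length of 9 members in TPM (log axis), ordered by the WT mean, with points for libraries and lines for group means. Plin2 is highest in both groups, and G0s2 moves from 81.3 TPM in WT to 562 TPM in Pak4_KO.

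The Pak4_KO libraries differed among themselves, and by the median over the 9 tested members replicate 1 stood nearest to WT. Replicate 1 was the lowest of the 3 for 5 of the 9 tested members (G0s2, Mgll, Plin2, Plin5 and Cidec), and for these replicate 3 was the highest. Replicate 1 was instead the highest for Abhd5, Plin4 and Cideb, and for Abhd5 and Plin4 it was the farthest from the WT mean. Over the 9 members, the median log2 level relative to the WT mean was 0.17 in Pak4_KO replicate 1, 0.64 in replicate 2 and 0.83 in replicate 3, and -0.11, 0.080 and -0.011 in the WT libraries. Pck1, a gluconeogenic gene, and Lpin1, a phosphatidate phosphatase, stood apart in the same library, Pck1 at 2242 CPM in Pak4_KO replicate 1 against 541 to 1347 CPM in the other 5 libraries. Lpin1 was at 838 CPM there and at 199 to 551 CPM in the others. Both transcripts are known to change with feeding and time of day. They were named after their values were seen, and the part of feeding or time in the differences between libraries was not tested.

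**Figure D5:**
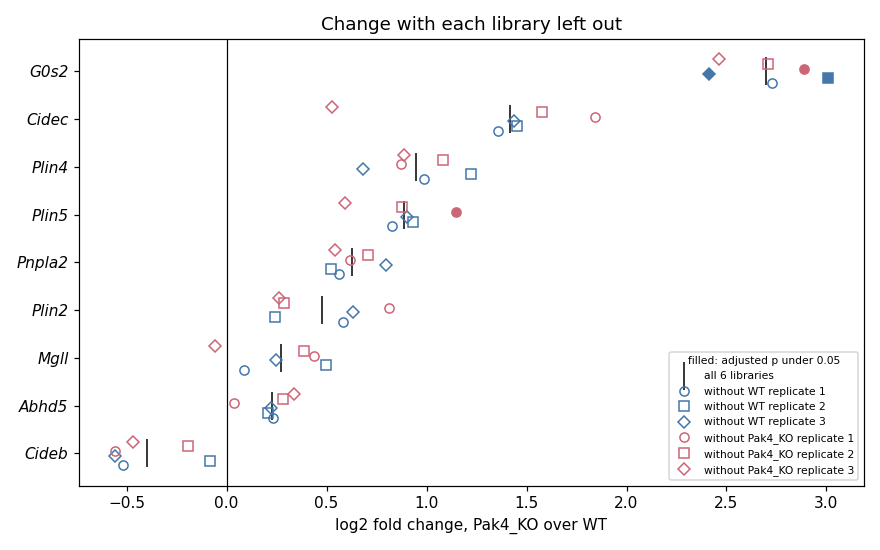
Log2 fold change of each tested member (x axis) with all 6 libraries (bar) and with each library left out (points, coloured by group), filled where the adjusted p is under 0.05. G0s2 stays between 2.41 and 3.01 with 3 of 6 points filled, Cidec spreads from 0.53 to 1.84, and Mgll crosses 0 without Pak4_KO replicate 3.

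No other gene of droplets or of triglyceride turnover passed the edgeR test. Of 54 such genes in 4 lists 50 were tested, and edgeR called 0, beside 0.265% of all tested genes called higher and 0.204% called lower. At an unadjusted p under 0.05, 9 were higher and 1 lower, beside 4.51% and 3.69% of all tested genes. The DESeq2 Wald test called 1 higher, Nceh1, and 0 lower, beside 1.08% and 0.982% of genes. Their median log2 fold change was 0.13, with 31 positive and 19 negative, beside 0.63 for the members and 0.0045 for all tested genes. In 8 of the 50 the Pak4_KO libraries were all above WT, and in 2 all below, beside 7.35% and 6.06% of all tested genes.

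Of 19 tested genes for other droplet proteins and droplet assembly, 8 were positive and 11 negative, with a median of -0.016. Fitm2 and Fitm1, whose proteins help droplets bud from the endoplasmic reticulum, had the smallest p. Fitm2 stood at 29.0 ± 2.27 CPM in WT against 43.3 ± 8.20 CPM in Pak4_KO (SD, n = 3 each), a log2 fold change of 0.58 (edgeR adjusted p = 0.280) without overlap. Fitm1 had a log2 fold change of 0.65 (edgeR adjusted p = 0.542), with overlap.

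Of 15 other lipid hydrolases, 10 were positive and 5 negative, with a median of 0.26. Nceh1, neutral cholesterol ester hydrolase, stood at 62.9, 44.7 and 62.1 CPM in WT against 81.6, 125 and 125 CPM in Pak4_KO. These did not overlap, and the log2 fold change was 0.97 (SE 0.21, edgeR adjusted p = 0.138, DESeq2 adjusted p = 0.00259). Ces1e, a carboxylesterase with close paralogs whose reads the counting could split, had a log2 fold change of 0.57 (edgeR adjusted p = 0.265, SE 0.15).

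Of 13 tested genes of triglyceride synthesis, 11 were positive, with a median of 0.18. Dgat1, which makes triglyceride from diacylglycerol, stood at 19.4 ± 2.17 CPM in WT against 25.2 ± 0.790 CPM in Pak4_KO (SD, n = 3 each; log2 fold change 0.38, edgeR adjusted p = 0.477). Mogat1, a monoacylglycerol acyltransferase, had 2 to 8 reads per WT library and 11 to 26 per Pak4_KO library (log2 fold change 1.84, SE 0.62, adjusted p = 0.433). Of the glycerol genes 3 of 5 were tested and none passed: the glycerol channel Aqp9 had a log2 fold change of -0.44 (edgeR adjusted p = 0.683) and glycerol kinase, Gk, one of 0.30 (adjusted p = 0.820).

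Several members are also genes of fat cells, so markers of other droplet-bearing cells were read beside them. Of 10 adipocyte markers, Adipoq and Lep had 0 reads in all 6 libraries, Plin1 had 7 reads in 1 WT library, Retn 3 in 1 WT library, and Ucp1 2 and 3 in 1 library of each group. The sum over the list was 42.5 to 71.3 CPM in WT against 65.1 to 80.1 CPM in Pak4_KO, overlapping, and consisted mostly of Fabp4 and Lpl, which other liver cells also express. Cfd, which encodes the complement protease adipsin, had 0, 5 and 0 reads in WT and 10, 146 and 131 in Pak4_KO (edgeR adjusted p = 0.138). Replicate 1 was the lowest of the Pak4_KO libraries for Cfd, as it was for G0s2, Mgll, Plin2, Plin5 and Cidec. Those members were highest in replicate 3, whereas Cfd was highest in replicate 2, at 3.09 CPM against 2.62 CPM in replicate 3. For Abhd5, Plin4 and Cideb, replicate 1 was the highest, and for Pnpla2 replicate 2 was the lowest. Adrb3, a beta-adrenergic receptor of fat cells, had 45, 50 and 30 reads in WT and 15, 3 and 18 in Pak4_KO (log2 fold change -1.83, edgeR adjusted p = 0.397). Of the 10 markers 5 were tested, with 4 positive and 1 negative, and edgeR called 0; Cfd was above WT and Adrb3 below WT in every Pak4_KO library. The part of fat cells in the members' values was not tested.

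The 10 markers of stellate cells, which store retinyl esters in droplets, summed to 217 to 336 CPM in WT against 195 to 392 CPM in Pak4_KO. Of these, 6 were positive and 4 negative and edgeR called 0. Lrat, which esterifies retinol, stood at 8.78 ± 1.32 CPM in WT against 16.0 ± 3.00 CPM in Pak4_KO (SD, n = 3 each; log2 fold change 0.86, edgeR adjusted p = 0.152; called by DESeq2). Macrophage markers summed to 448 to 600 CPM in WT against 351 to 462 CPM in Pak4_KO, with 9 of 10 negative. Mpeg1 of that list had a log2 fold change of -0.79 (edgeR adjusted p = 0.143; called by DESeq2). The part of stellate cells and macrophages in the members' values was not tested.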

How the data were processed

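Polyadenylated RNA of whole liver was sequenced with a stranded kit (TruSeq Stranded mRNA), per the labels' protocols. Tools named in the submitters' processing notes include StringTie 2.1.3b, HISAT2 2.1.0 and Bowtie2 2.3.4.1, with build mm10. No source used here gives the order of steps, annotation release, strand setting or handling of multi-mapping reads. Raw read counts for 45777 genes were deposited by the authors in 1 table, per the file headers. The table also holds FPKM, deposited by the authors and not used, and TPM, deposited by the authors and used for levels per length and in 1 alternative.

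edgeR 4.0.16 (R 4.3.3) was run on these counts. filterByExpr kept 16197 genes, libraries were scaled by TMM factors, and the two-sided quasi-likelihood test compared Pak4_KO with WT, with calls at a p under 0.05 after Benjamini-Hochberg adjustment over all tested genes. The SE was derived from the log2 fold change and the F statistic, and intervals use the fit's degrees of freedom. Totals of 39603272 to 52521400 reads make counting error small for the tested members. More genes had 2 reads than 1 in each library, so read pairs may count as 2 reads. All members matched RefSeq (GRCm38.p6, equivalent to mm10) by NCBI gene identifier. Strands and overlaps come from GENCODE M21.

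The members and lists were chosen with earlier results of these data known. By the rule, all 10 members, Pak4 and, of each list of related genes, the called genes or the 2 with the smallest p are named; of marker lists, those at or near 0. Other genes, such as Cfd, Adrb3, Lrat, Mpeg1, Pck1, Lpin1 and overlapping genes, were named after their values were seen. Alternatives were RLE factors, library size alone, no filter, at least 10 reads in every library, DESeq2 1.42.0, limma-voom (limma 3.58.1), leaving out each library, a block for the replicate number, and limma-trend on log2(TPM + 1).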

Additional observations from a re-analysis of the deposited data

How the results depend on the processing

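Over 126 refits of the 9 tested members, 119 kept both direction and side of the threshold. Direction turned once, for Mgll (log2 fold change -0.060 without Pak4_KO replicate 3, and up to 0.50 with another library left out). G0s2 passed in all 8 alternatives with all 6 libraries and in 3 of the 6 with a library left out, with adjusted p-values up to 0.0968. Members called higher numbered 3 by DESeq2 and 0 to 2 with a library left out. Genes called higher over the whole table numbered 43, against 175 by DESeq2, 16 with at least 10 reads in every library, and 22 to 34 with a library left out. Genes called lower numbered 33, against 159 by DESeq2 and 13 to 47 with a library left out. The cause of these differences was not tested.

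Deviations of same-numbered WT and Pak4_KO libraries from their group means had correlations across genes of 0.067, -0.20 and 0.15. Different-numbered libraries had correlations of -0.24 to 0.19. The check thus gave no sign of pairing by replicate number, but with 3 libraries per group it cannot show that there was none. With the replicate block, 39 genes were called higher and 34 lower, and G0s2 remained the 1 member called.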
